A study of Mus musculus with 87 samples.

Results

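Weak ETn loci of the C57BL/6 (B6) genome were described in 409 of 5018 loci found by ETn capture sequencing of mouse genomic DNA. A library's reads at a locus were divided by its total of ETn-paired reads and given per 1e6 reads (RPM), and 10 RPM or more made a call. The 409 were the loci called in all 16 B6 libraries and below 100 RPM in at least 1 of them. They were chosen by these measured levels, so their B6 levels are given as a description and were not tested. The other 1936 loci with calls in all 16 never fell below 100 RPM there and are named strong loci here.

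ETn elements are mouse endogenous retroviruses with a long terminal repeat (LTR) at each end and no working genes of their own, and they move with the help of proteins from related elements. Their copies are spread over all chromosomes, some are recent enough to differ between inbred strains, and new insertions have caused mouse mutations. KRAB zinc finger proteins, encoded in gene clusters, bind such elements and silence them. In this assay DNA fragments that hold an LTR end were pulled out with RNA probes, so that the unique DNA beside an element was read and its position known.

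The 16 B6 libraries came from 14 mice and 2 ES cell lines. In 12 of the mice both copies of a KRAB zinc finger cluster on chromosome 4 were deleted (Chr4-cl KO/KO). These were 4 ancestors (tail, ear and spleen), 3 F3 mice descended from them (tail) and 5 F4 mice from the F3 mice (blood and ear), so they belonged to 1 pedigree. The other 2 mice were Chr4-cl WT (blood), and the ES cell lines were Chr4-cl KO/WT. The 60 libraries outside B6, 1 per mouse, played no part in choosing the loci. They were 13 B6x129X1/SvJ mice crossed once to 129X1/SvJ (F1: 8 KO, 2 KO/WT, 3 WT), 39 crossed to it a second time (F2: 19 KO, 12 KO/WT, 8 WT), and 8 offspring of 1 mating with a KRAB zinc finger cluster on chromosome 2 deleted in some (Chr2-cl: 5 KO, 1 KO/WT, 2 WT). The strain of these 8 was a cross of B6 with 129/Sv and 129/Sv-CP. Tissues were ear, tail and blood. Littermates shared parents, and 4 of the 8 F1 KO mice were offspring of 2 others of them (T09673 and T00869). Per the study, the F1 KO/WT mice T3913 and T3921 were parents of the F1 mice T09673, T09674 and T00436. Of the F2 KO mice, 2 were offspring of the F2 mice C6765 and C6733. F2 also held mice grouped as parents (BA27227, BA27228, BA27084 and BA27232). The comparisons between classes took these relatives as independent, so p-values describe the families sequenced rather than the strains. Another 11 libraries were repeats or other tissues of 6 of the F2 mice.

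The 87 libraries held 525419 to 1046650 ETn-paired reads, with a median of 736479, so that 10 RPM stood for 5.25 to 10.5 reads. The fewest reads behind a member's value in a B6 library were 6, with an exact 95% Poisson interval of 2.20 to 13.1 that covers counting error only, since the reads carried no molecular identifiers. The library labelled T2379, a B6 KO/KO female (tail), stood apart. It was the shallowest, had 31989 regions of 1 read against a median of 4654 in the 76 main libraries, and went against its labels at the deleted cluster and on chromosome Y (below). The choice of weak loci rested on it in part, and the number of loci, their calls outside B6 and the 3 tests are also given with the loci chosen without it. For 4 F2 mice labelled male (C6923, C6924, C6926 and H04408) the chromosome Y locus was at the level of females.

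The sequences that follow show what the probes could bind at weak loci. The first pair are the designed probes used most often, at 52 and 50 elements, for the start and the end of an LTR.
probe for the start of the LTR, chr1:3145941-3146060 (+): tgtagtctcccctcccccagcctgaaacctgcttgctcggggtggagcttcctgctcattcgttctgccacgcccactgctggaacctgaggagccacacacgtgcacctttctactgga
probe for the end of the LTR, chr1:7466872-7466991 (+): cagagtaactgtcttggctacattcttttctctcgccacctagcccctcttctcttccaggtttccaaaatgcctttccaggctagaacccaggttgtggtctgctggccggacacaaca

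The next sequences are the best probe match at weak loci, read 5′ to 3′ from the mm9 genome on the strand given, with capitals for bases that differ from or are absent in that probe. They run from a full match over 1 with 15 inserted bases to matches of only 34 and 32 bases at the very end of the LTR. The poorest match, 28 of 30 bases at chr17:95268791-95268820, was nearly all t and is not shown, though it is counted as a match below.
chr14:4903508-4903627 (+), all 120 bases: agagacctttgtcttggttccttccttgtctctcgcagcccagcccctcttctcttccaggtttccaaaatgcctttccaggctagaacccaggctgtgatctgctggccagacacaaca
chr17:33901654-33901788 (-), 120 of 135: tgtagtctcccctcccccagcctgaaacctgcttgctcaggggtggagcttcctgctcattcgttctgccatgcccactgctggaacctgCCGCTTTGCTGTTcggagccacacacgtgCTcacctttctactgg
chr10:40774370-40774403 (+), 34 bases: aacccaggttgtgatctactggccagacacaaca
chr7:53395239-53395270 (+), 32 bases: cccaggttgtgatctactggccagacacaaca

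Some loci carry the comparisons below: a pair in the deleted stretch of chromosome 4, 4 of a group on chromosome 5 that was absent from most mice outside B6, and 1 on chromosome 1 that was seldom seen there.
chr4:146918868-146918987 (+), all 120 bases: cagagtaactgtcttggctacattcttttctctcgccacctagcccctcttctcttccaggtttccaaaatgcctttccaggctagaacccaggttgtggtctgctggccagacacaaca
chr4:146108320-146108439 (-), 119 of 120: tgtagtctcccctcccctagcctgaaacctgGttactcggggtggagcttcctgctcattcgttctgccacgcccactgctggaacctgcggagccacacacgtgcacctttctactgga
chr5:94708127-94708246 (+), all 120 bases: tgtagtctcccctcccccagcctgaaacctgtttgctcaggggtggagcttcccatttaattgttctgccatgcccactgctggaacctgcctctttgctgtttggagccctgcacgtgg
chr5:95357127-95357246 (+), all 120 bases: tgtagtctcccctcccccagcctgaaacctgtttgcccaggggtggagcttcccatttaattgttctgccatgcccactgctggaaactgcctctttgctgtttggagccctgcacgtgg
chr5:95742816-95742935 (-), 116 of 120: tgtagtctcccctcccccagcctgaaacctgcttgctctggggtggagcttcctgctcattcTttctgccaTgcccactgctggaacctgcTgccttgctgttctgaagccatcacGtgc
chr5:95952667-95952793 (-), 110 of 127: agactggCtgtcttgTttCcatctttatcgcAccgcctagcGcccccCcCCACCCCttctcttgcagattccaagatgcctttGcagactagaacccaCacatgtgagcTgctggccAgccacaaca
chr1:44882859-44882978 (-), all 120 bases: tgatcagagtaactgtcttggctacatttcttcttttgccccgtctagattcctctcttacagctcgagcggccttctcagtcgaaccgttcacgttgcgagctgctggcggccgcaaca
The match at chr5:95674107-95674226 (+) was letter for letter that at chr5:94708127-94708246.

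The weak loci were many but took few reads. They made up 409 of 2345 loci with calls throughout B6, and held 3.56 to 4.15% (median 3.93%) of a B6 library's reads, while the strong loci held 86.3 to 94.2% (median 93.7%). The median level of a weak locus over the 16 libraries was 67.7 RPM, with quartiles of 39.2 and 108, against 462 RPM (367 and 534) at strong loci. In any 1 B6 library 269 to 301 of the 409 were below 100 RPM, with a median of 289.

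**Figure D1:**
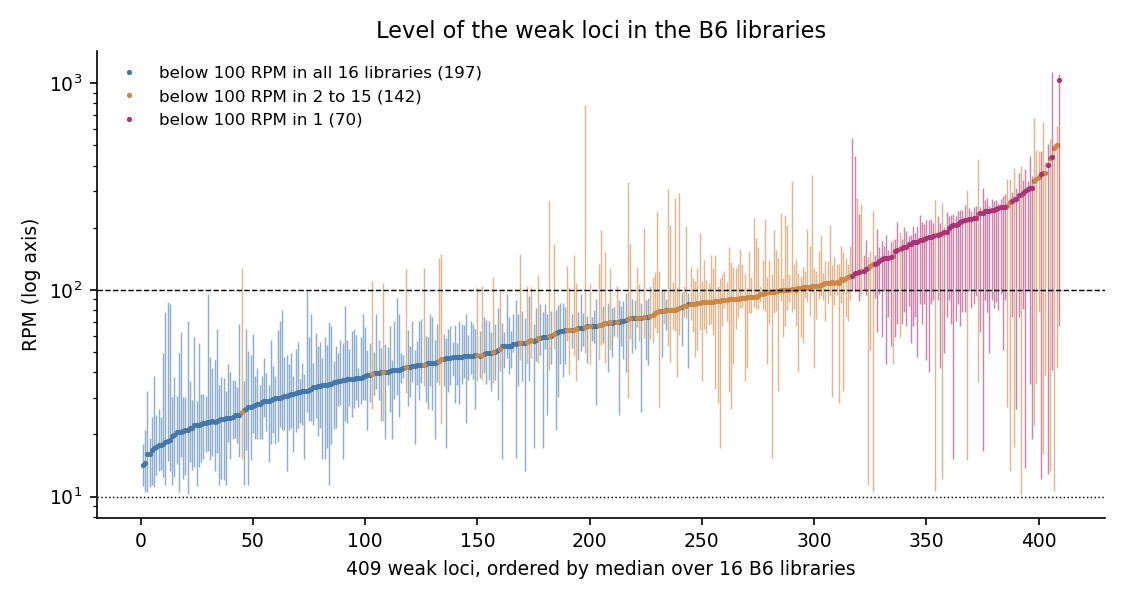
Level of each of the 409 weak loci in the 16 B6 libraries (y axis, RPM on a log scale), with loci ordered along the x axis by their median. Points are medians, vertical lines run from the lowest to the highest library, and the dotted and dashed lines mark 10 and 100 RPM. Loci below 100 RPM in 1 library (70) had medians from 117 to 1037 RPM and a long line downward, and those below it in all 16 (197) had medians from 14.1 to 85.4 RPM.

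The loci fell into 3 kinds by how many B6 libraries were below 100 RPM. At 197 loci all 16 libraries were below it, with a median of 38.5 RPM over these loci. At 142 loci 2 to 15 libraries were below it, with a median of 91.6 RPM. At 70 loci a single library was below it and the median was 201 RPM.

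The last kind rested mostly on the library labelled T2379, which was the single low library at 56 of the 70. There it held 7.29 to 69.2% (median 36.8%) of the median of the other 15 B6 libraries. At strong loci the same share ran from 44.1% (5th percentile) over 78.9% (median) to 182% (95th percentile). Without T2379 the rule gave 379 loci, 353 of them among the 409, and a median of 53.9 RPM. The other 14 single low libraries were T09693 (5 loci), T09692 (3), T00431 (2), T09695 (2), T09655 (1) and T2613 (1).

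The lowest of the 409 lay close to the calling threshold. The locus at chrX:120510320-120510929, 15634 bp from Gm2411, held 11.3 RPM as its lowest and 14.1 as its median B6 value, and was called in 50 of the 60 other libraries. The others with the lowest medians were at chr14:7867324-7868637 (14.5 RPM, in Gm10406), chr3:71130154-71130975 (16.1), chr10:9988277-9989575 (16.2) and chr6:124499793-124502132 (16.7), in an intron of C1s, the gene of a complement protease. The minima nearest above 10 RPM were 10.3 at chr14:44740650-44743345 and chr15:43728438-43729623 and 10.5 at chr3:71130154-71130975.

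At the other end, the highest median was 1037 RPM at chr17:41207782-41219623, between genes and 109199 bp from Mut, the methylmalonyl-CoA mutase gene. Its lowest value was 66.7 RPM in T09695, and the other 15 libraries held 795 to 1107. Medians of 504, 484 and 439 RPM followed at chr1:7604309-7612375, chr6:126456563-126458826 and chr12:18465674-18472910, and the next was that of chr1:5997944-6004956. All of these were members through 1 to 4 libraries only.

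The bound of 100 RPM cut through a continuous range. Just inside it were chr4:40540588-40542246 with a minimum of 99.8 RPM, chr17:88257802-88261025 with 99.1 and chr12:36932227-36933109 with 99.0. Just outside were chr1:13804846-13808980, chr7:143436715-143438855 and chr19:33523706-33530634, each with a minimum of 101 RPM.

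Relative to their mean, weak loci varied more between the B6 libraries that chose them than strong loci did. The rule asked for a value below 100 RPM at weak loci and allowed none at strong loci. A wider relative spread was thus partly built in, and it is given as a description. The coefficient of variation over the 16 libraries had a median of 0.211 at weak and 0.103 at strong loci. As a multiple of the variance that counting alone gives, the median variance was lower at weak loci, at 2.15 against 2.91. It was 1.38 at the 197 loci below 100 RPM throughout. Repeat libraries also differed more at weak loci. In 5 pairs, 4 of tail and 1 of testis, the median absolute log2 ratio of a weak locus was 0.16 to 0.22, computed with 1 RPM added, against 0.05 to 0.07 for strong loci. Of the 409, 10 to 24 differed over 2-fold within a pair, and 5 to 13 were called in only 1 library of it.

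Some weak loci were high in most B6 mice and near the calling threshold in a few. Of the 121 with a median of 100 RPM or more, 32 held less than 25% of that median in at least 1 library, a cutoff set after the values were seen. The library labelled T2379 alone was low at 8 of them, and at 23 only others were. By library, T09693 was low at 15, T09695 and T2379 at 9 each, T09692 and T09694 at 8 each, T00431 at 7, T00432 and T2613 at 6 each and T09691 at 5. T00460, T09655 and T09656 were low at 1 each, which for the WT mice T09655 and T09656 was the chromosome Y locus (below), and T2680, T2682 and both ES cell lines at none.

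**Figure D2:**
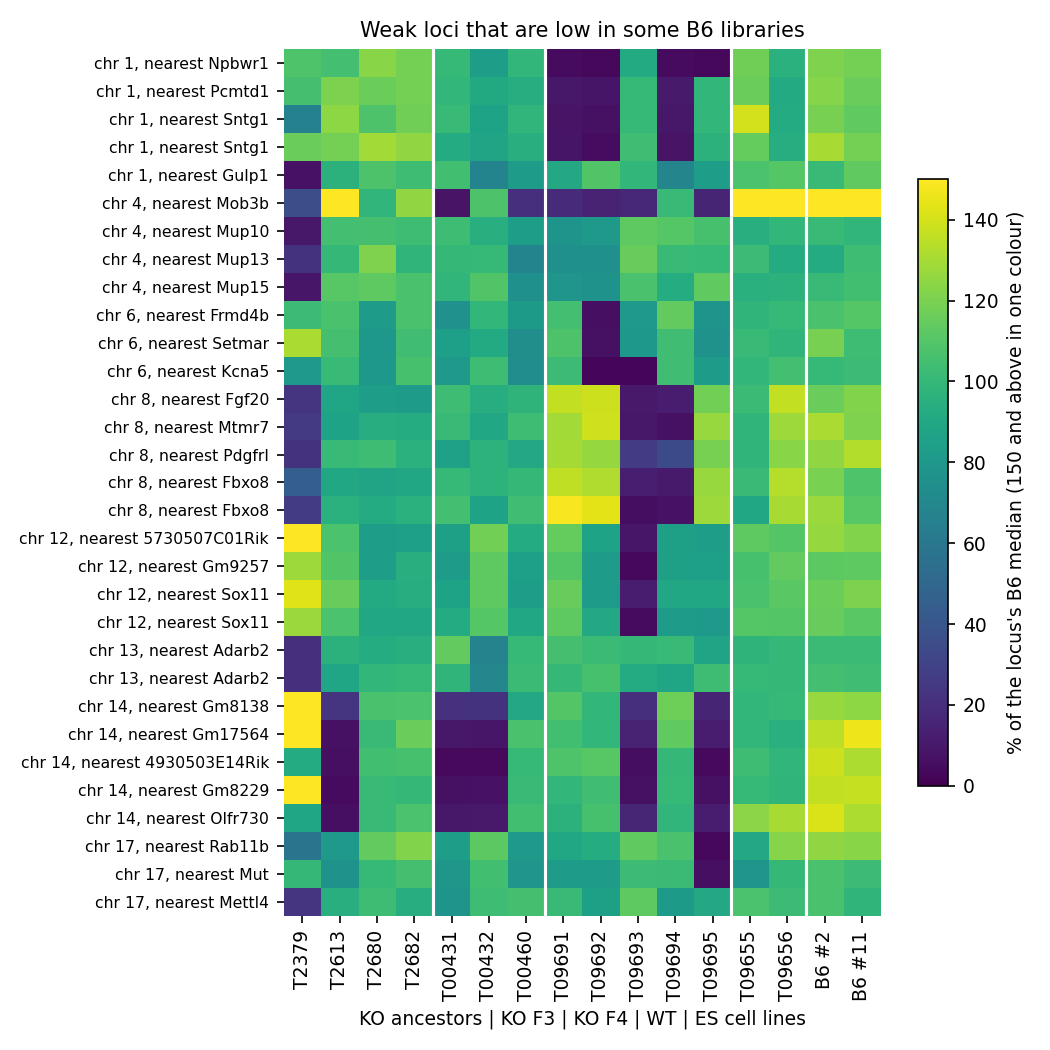
Level in each of the 16 B6 libraries (columns, by group) at 31 weak loci off chromosome Y that fall below 25% of their B6 median in some library (rows, by chromosome and nearest gene). Colour gives the percentage of the locus's B6 median. Many dark cells stand in runs of neighbouring loci in the same animals, such as T09691, T09692 and T09694 on chromosome 1 and T2613, T00431, T00432, T09693 and T09695 on chromosome 14.

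Many low values came in neighbouring loci of the same animals. On chromosome 1 from 5997944 to 7941843, all 4 weak loci were low in the F4 mice T09691, T09692 and T09694. At the first of these, 90464 bp from the neuropeptide receptor gene Npbwr1, the 5 F4 mice held 19.5, 13.3, 397, 19.5 and 14.1 RPM, the fourth low value being that of T09695. The F3 mice they descend from held 365, 430 and 437 RPM there, the ancestors 457 to 536, the WT mice 416 and 511 and the ES cell lines 515 and 524. The low mice were picked by this gap, so the distance between them and the rest is a description.

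On chromosome 14 from 44062723 to 50829582, 5 of 6 weak loci were low in the same 5 mice, the ancestor T2613, the F3 mice T00431 and T00432 and the F4 mice T09693 and T09695. At chr14:44740650-44743345, over a coding exon of 4930503E14Rik, these held 17.3, 11.7, 10.8, 16.7 and 10.3 RPM. The other 11 libraries held 265 to 397 RPM.

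Other low values were less closely grouped. T09693 was low at 4 of the 12 weak loci from 18465674 to 28110270 on chromosome 12, from 41.0 RPM at chr12:18465674-18472910 (368 to 1134 elsewhere) to 12.2 RPM at chr12:19648982-19651370 (300 to 468 elsewhere). T09692 was low at 3 of the 7 weak loci from 97602085 to 126458826 on chromosome 6, and T09693 at 1 of these too. T09695 was low at chr17:33900521-33903185, which held 12.8 RPM there and 232 to 506 in the others, and at chr17:41207782-41219623 (above). T2379 was low at 3 loci on chromosome 4 nearest the major urinary protein genes Mup10, Mup13 and Mup15, with 11.4 to 40.0 RPM. The locus at chr4:34874943-34876592, nearest Mob3b, was low in 6 mice (T00431, T00460, T09691, T09692, T09693 and T09695), with 10.5 to 27.7 RPM against 47.6 to 241 in the other libraries.

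The same loci were not low in the same way outside B6. At chr14:44740650-44743345 all 60 other libraries were called, and the 39 F2 mice held 369 to 480 RPM. At chr14:50824266-50829582, the last of that run, the F2 mice held only 21.1 to 59.0 RPM. At chr17:41207782-41219623 the F2 mice ranged from 56.9 to 920 RPM with a median of 131.

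Weak loci matched the capture probes less well than strong ones. The study's 1274 ETn probes are 120 bases long, with 902 different sequences. A match within 1000 bp was found for 399 of 409 weak loci (97.6%) and for all 1936 strong loci. The best match had a median of 111 identical bases (quartiles 102 and 120) at weak and 119 (116 and 120) at strong loci. All 120 bases matched at 108 weak loci (26.4%) and 958 strong ones (49.5%), and fewer than 100 at 68 weak (16.6%) and 7 strong (0.362%).

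**Figure D3:**
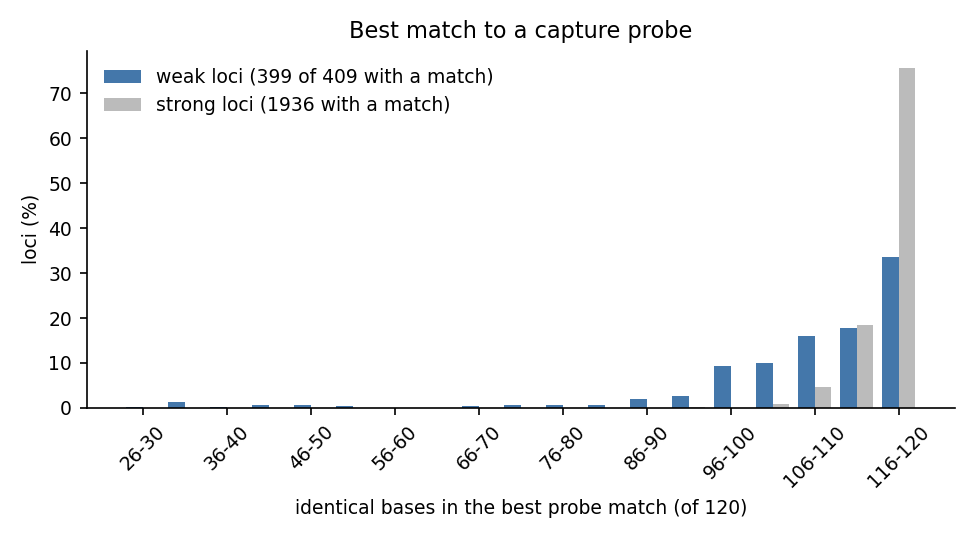
Share of the 409 weak and 1936 strong loci (y axis, percent of each set) by the number of identical bases in the best match to a capture probe (x axis, in steps of 5). Strong loci lie mostly in the last step (75.7%), which holds 33.5% of weak loci, and weak loci spread down to about 30 bases.

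Read the other way, loci with 109 or fewer identical bases were 67.5% weak (166 weak, 80 strong). Those with 110 to 117 were 15.5% weak (111 and 604), and those with 118 to 120 were 8.88% weak (122 and 1252). The median B6 level of the weak loci in these classes was 49.8, 69.6 and 91.9 RPM. Over the 399 weak loci with a match, Spearman's rho of level and identical bases was 0.28, a description over loci that share libraries and probe sequences. A probe had been designed within 1000 bp of 102 weak loci (24.9%), whose median was 97.3 RPM against 61.1 for the other 307, and of 725 strong loci (37.4%).

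The level did not follow the match at each locus, since a locus with no match held a median of 161 RPM. The locus at chr14:4902678-4904212, in an intron of Gm3264, held a median of 92.9 RPM with all 120 bases matched. The median of weak loci with 118 to 120 identical bases was 91.9 RPM. Those with matches of 34 and 32 bases held 34.7 RPM (chr10:40773095-40774878) and 59.3 RPM (chr7:53394087-53395844), the second over a coding exon of Abcc8, the sulfonylurea receptor gene. Of the 10 loci with no match, the highest median was 161 RPM at chr16:3251967-3254269, then 80.9 at chr5:79852164-79853122, 71.1 at chrX:72932621-72934160 and 47.7 at chrX:143742552-143742869.

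The second feature was how much of a locus could be mapped. Of the 50-base words of a locus and 500 bp on each side, a median of 79.1% occurred once in the genome at weak loci and 87.5% at strong ones. Fewer than 50% were unique at 123 weak loci (30.1%) and 221 strong loci (11.4%). Among weak loci level and unique share had a rho of -0.00. Weak loci were narrower, with medians of 2096 and 3080 bp, and GC content was close (41.1 and 41.4%).

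Most weak loci lay between genes. Of the 409, 321 did (78.5%, against 76.3% of strong loci), 63 were in introns, 16 over non-coding exons or untranslated regions and 9 over coding exons (2.20%, against 5.17% of strong loci). The highest medians over coding exons were 287 RPM at 4930503E14Rik, 269 at Trat1, a T cell receptor adaptor, 217 at B4galnt2, a glycosyltransferase, 190 at Vmn2r9, a vomeronasal receptor, 108 at Ceacam2, a cell adhesion gene, and 70.0 at Clec2h, a lectin. The nearest coding gene had a provisional name beginning with Gm at 96 weak loci (23.5%) and 212 strong loci (11.0%). It was an olfactory receptor (Olfr) at 18 weak (4.40%) and 56 strong loci (2.89%). A vomeronasal receptor (Vmn) was nearest at 14 weak (3.42%) and 46 strong loci (2.38%). By chromosome, weak loci made up 31.4% of weak and strong loci together on chromosome 14, 26.8% on chromosome 7 and 25.7% on chromosome 12, and 10.6% on chromosome 10.

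In the 60 libraries outside B6, whose levels the rule did not use, most weak loci were called again. Of the 409, 323 (79.0%) were called in all 60, against 1836 of 1936 strong loci (94.8%). By the rule weak loci lie nearer the calling threshold, and 96 of them held under 20 RPM in some B6 library. Another 14 weak loci were called in 58 and 19 in 59 of the 60. How much of the gap came from counting near the threshold was not tested. A library called 392 to 407 of the weak loci in F1 (median 399), 372 to 395 in F2 (386) and 393 to 406 in the Chr2-cl mating (400). Their share of reads was 3.55 to 3.89% in F1, 3.13 to 3.90% in F2 and 3.73 to 4.09% in the Chr2-cl mating.

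The levels outside B6 followed those in B6. The median over the 60 libraries was 63.6 RPM, and rho between a locus's B6 and other medians was 0.88, given as a description. Of the 197 loci below 100 RPM in all B6 libraries, 187 were below it in all 60 others too. Of the 70 with a single low B6 library, 41 were at 100 RPM or more in all 60, and of the 56 that T2379 alone had put there, 45 were called in all 39 F2 mice.

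Of the 409, 13 weak loci were called in fewer than 30 of the 60, and 10 of these in no F2 mouse. Of the 1936 strong loci 16 were called in fewer than 30. The library T2379 alone made 5 of the 13 weak, those at chr1:44882128-44884484, chr2:51351563-51353848, the 2 Adarb2 loci and Rb1 (below), where it held 15.2, 78.0, 51.4, 49.5 and 79.9 RPM and the next lowest B6 library 140, 198, 169, 168 and 227. Without T2379, 8 of the 13 stayed weak, 6 of them called in no F2 mouse, and 11 weak loci in all were called in fewer than 30. On chromosome 5 between 94192490 and 95953523 lay 10 weak and 3 strong loci, and for all 10 the nearest gene had a Gm name. Of their 50-base words only 0.475 to 12.1% were unique. Of these, 5 (chr5:94706792-94709129, chr5:95355961-95357703, chr5:95672541-95674746, chr5:95742618-95742826 in an intron of Gm3259, and chr5:95952485-95953523) were called together in 16 of the 60 libraries and all uncalled in the other 44.

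**Figure D4:**
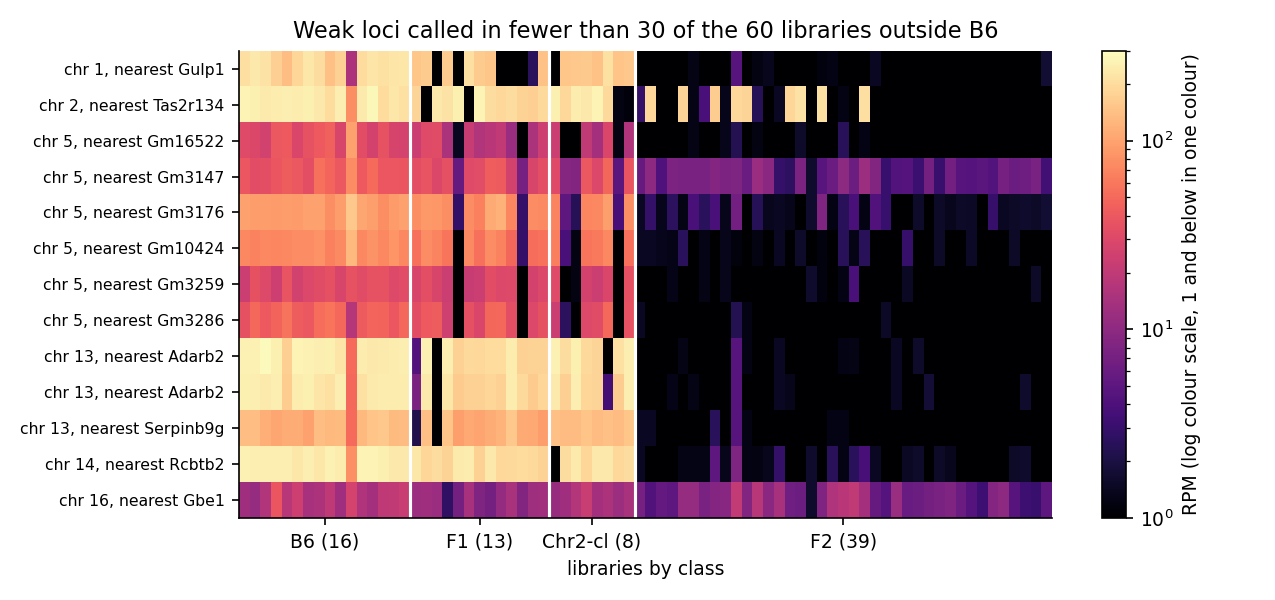
Level (colour, RPM on a log scale) of the 13 weak loci called in fewer than 30 of the 60 libraries outside B6 (rows, by chromosome and nearest gene) in the 76 main libraries (columns, by class). All 16 B6 columns are bright, as the rule required. Most rows are dark across the 39 F2 columns, and the 5 chromosome 5 rows near Gm16522, Gm3176, Gm10424, Gm3259 and Gm3286 are dark in the same F1 and Chr2-cl columns.

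At chr5:95355961-95357703, 22395 bp from Gm3176, the B6 libraries held 77.1, 92.3 and 154 RPM as lowest, median and highest. The F1 mice held 2.83, 75.8 and 118 RPM, the Chr2-cl mating 2.41, 70.6 and 96.0, and the F2 mice 0, 1.53 and 8.30. Without these 5 loci were 2 F1 mice (T00464 and C6427) and 3 of the Chr2-cl mating (C6735, C6773 and C6774), each at 5.12 RPM or less at this locus, while the other F1 and Chr2-cl mice held at least 67.4. No F2 mouse was called at this locus, so all F2 mice lay below every called mouse by definition.

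The locus called least often was chr1:44882128-44884484, 28449 bp from Gulp1, a gene for clearing dying cells. It was called in 14 of the 60, in 7 F1 mice and 7 of the Chr2-cl mating. The B6 libraries held 15.2, 206 and 233 RPM, with the lowest value in T2379 and the next at 140. In F2 the highest was 4.62 RPM and 31 of 39 mice had no read. The remaining loci of this kind were a pair over non-coding exons or untranslated regions of Adarb2 (chr13:8760059-8761135 and chr13:8766582-8767894, 18 of 60), chr13:33547636-33549089 (19), chr5:95018322-95018479 (19), chr14:73594500-73595630 at Rb1 (20), chr2:51351563-51353848 (26) and chr16:70275907-70276290 (27).

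KO mice were compared with their littermates in the 30 juvenile tails of 3 F2 matings, 13 KO and 17 KO/WT or WT, with the mating as a covariate. Of 2784 loci tested across all classes, 12 were called (0.431%) by edgeR's quasi-likelihood test at a Benjamini-Hochberg adjusted p below 0.05. Of the 409 weak loci 398 passed the filter on low values, and 2 of them were called (0.503%), both lower in KO. With the weak loci chosen without T2379 they were 2 of 369. Both lie in the deleted stretch of chromosome 4, the loss of which defines KO. A lower level in KO was thus set by the design, and the p-values of these loci are given as a description. At an unadjusted p below 0.05 there were 15 weak loci of 127 in all, and the median log2 fold change was 0.00 for weak loci and 0.00 for all.

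At chr4:146917867-146925152, 257 bp from Gm16503, the 13 KO tails held 36.1, 59.0 and 112 RPM as lowest, median and highest, the 9 KO/WT tails 428, 448 and 479, and the 8 WT tails 560, 596 and 651. The 3 genotypes did not overlap. The means were 67.5 ± 24.9 (SD, n = 13), 452 ± 17.0 (n = 9) and 598 ± 32.4 (n = 8), so that KO held 11.3% and KO/WT 75.6% of the WT mean. The log2 fold change of KO against littermates was -2.93 (SE 0.15, edgeR adjusted p = 4.42e-15).

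At chr4:146107781-146109027, 13758 bp from Gm13051, the KO tails held 11.7, 18.1 and 24.7 RPM, the KO/WT tails 26.8, 34.2 and 42.8, and the WT tails 31.9, 37.6 and 42.7. KO lay below both other genotypes, which overlapped. The means were 18.2 ± 4.35, 34.8 ± 5.06 and 37.4 ± 3.37 (SD), which put KO at 48.6% and KO/WT at 93.1% of WT. The log2 fold change was -0.97 (SE 0.10, edgeR adjusted p = 2.86e-08).

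**Figure D5:**
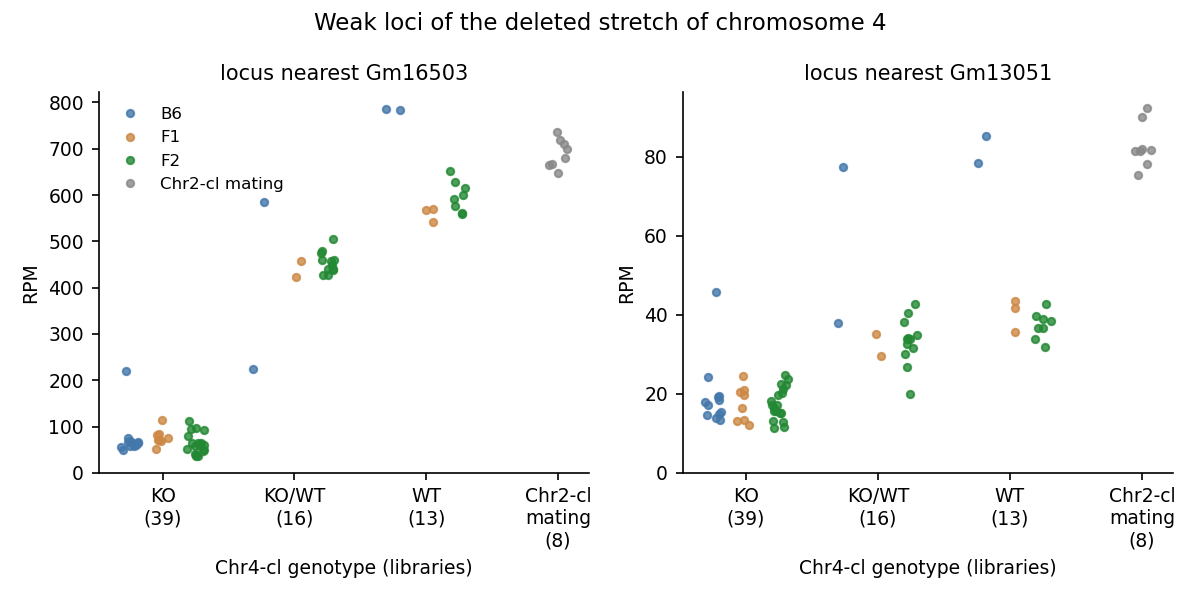
RPM (y axis) of the weak loci nearest Gm16503 (left) and Gm13051 (right) in the 76 main libraries, by Chr4-cl genotype (x axis, number of libraries in brackets) and class (colour). Each point is 1 library. KO points lie lowest on the left. On the right they lie at 24.7 RPM or less apart from T2379 at 45.7, the lowest KO/WT point lies among them, and B6 WT and Chr2-cl points, at 75.5 to 92.4 RPM, lie above F1 and F2 WT points at 31.9 to 43.4.

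The same order was seen by genotype in B6, where the values had helped to choose these loci. At the first locus the WT mice held 783 and 785 RPM and the KO mice other than T2379 49.4 to 76.0 (median 64.3, n = 11), the ES cell lines 224 and 585, and T2379, labelled KO, 221. At the second the WT mice held 78.5 and 85.2 RPM, those KO mice 13.3 to 24.3, the ES cell lines 38.0 and 77.4, and T2379 45.7. At both, T2379 was above every other B6 KO mouse.

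Neither locus reached 0 in KO mice. At chr4:146815715-146816638, which was not called in B6 KO mice, the 19 F2 KO mice held 0 RPM and the 8 F2 WT mice 21.4 to 38.5. At chr4:145019453-145021647 F2 KO mice held 0 to 12.4 RPM and F2 WT mice 398 to 454. Of the words of the pair of weak loci, 46.2% and 12.6% were unique. Whether reads of similar copies elsewhere were placed there was not tested.

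F2 mice, with a second cross to 129X1/SvJ, were compared with F1 mice (39 and 13). Of 2868 loci tested 457 were called (15.9%). Among the weak loci 42 of 409 were (10.3%), 14 higher and 28 lower in F2, and 350 of 1936 strong loci were (18.1%). Of the 409, 10 were called in no F2 mouse, passed the filter only through F1 and had to differ (below). How many of the 28 these make up was not counted, nor were such loci among the strong ones. With DESeq2 the shares were 14.4% of weak and 14.6% of all loci, and in ear libraries alone 3.91 and 3.86%. The difference in share was not tested. With the weak loci chosen without T2379, 37 of 379 were called (9.76%). The median log2 fold change was -0.05 for weak loci and 0.02 for all. An unadjusted p below 0.05 was found at 88 of 409 weak loci and at 801 of 2868 in all. In the ear libraries alone 16 weak loci were called, and in the tails alone 39.

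The weak loci that were lower in F2 were led by those near absence there. They passed the filter on low values only through F1, the class where they were high, since no F2 mouse reached 10 RPM, so they had to differ. The loci at Rb1 and Adarb2 were moreover weak through T2379 alone. At chr14:73594500-73595630, over a non-coding exon or untranslated region of the tumour suppressor gene Rb1, F1 mice held 173, 196 and 242 RPM and F2 mice 0, 1.25 and 8.09. The log2 fold change was -7.11, and p-values are not given for these loci. The Adarb2 pair fell by 8.27 (chr13:8760059-8761135) and 8.18 (chr13:8766582-8767894) on the log2 scale. In that order, F1 means were 172 ± 81.4 and 163 ± 75.7 RPM, against 0.361 and 0.379 in F2. In F1 these and chr13:33547636-33549089, which fell by 7.48, were near 0 in the same 2 mice, T09673 and T00436, and at 92.5 RPM or more in the other 11. At chr5:95952485-95953523 the means were 31.1 ± 15.7 and 0.166 ± 0.516 RPM (log2 fold change -6.49).

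A decrease at a locus that was called in all F2 mice was that at chr14:50824266-50829582, 17372 bp from the olfactory receptor gene Olfr730. F1 mice held 40.4, 337 and 397 RPM and F2 mice 21.1, 40.1 and 59.0, so that the lowest F1 mouse lay within the F2 range. The log2 fold change was -2.97 (SE 0.13, edgeR adjusted p = 1.08e-26).

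The increases were small. At chr3:149913396-149915403 F1 mice held 46.5, 78.0 and 96.4 RPM and F2 mice 85.7, 104 and 124, with an overlap and a log2 fold change of 0.50 (SE 0.07, edgeR adjusted p = 2.55e-07). Of the 6 increases with the smallest p, 4 were neighbours on chromosome 14 between 44062723 and 44933377, with log2 fold changes of 0.17 to 0.26. These were 4 of the 5 loci that were low in some B6 mice (above). The fifth, at chr14:50824266-50829582, fell.

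The Chr2-cl mating was compared with the F2 mice (8 and 39), which are the same F2 libraries as in the comparison before. Of 2889 loci tested 770 were called (26.7%). Among the weak loci 60 of 409 were (14.7%), 34 higher and 26 lower in the Chr2-cl mating, and 27.4% of strong loci were. The 10 weak loci called in no F2 mouse passed the filter only through the Chr2-cl mating and had to differ (below). How many of the 34 these make up was not counted, nor were such loci among the strong ones. Without the filter 53 of 409 weak loci and 677 of 4898 in all (13.8%) were called, and with DESeq2 the shares were 18.3 and 20.3%. The difference in share was not tested. With the weak loci chosen without T2379, 51 of 378 were called. The median log2 fold change was 0.02 for weak loci and -0.04 for all. An unadjusted p below 0.05 was found at 92 of 409 weak loci and at 1125 of 2889 in all. With ear libraries alone 22 were called (5.38%, against 7.62% of all loci). Against F1 in place of F2, 13 were called (3.18%, against 7.71% of all loci).

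The largest differences were at the loci near absence in F2, which passed the filter only through the Chr2-cl mating and so had to differ. All but the first of those that follow were weak through T2379 alone. At chr13:33547636-33549089, 27569 bp from the serine protease inhibitor gene Serpinb9g, the Chr2-cl mice held 135, 139 and 151 RPM and the F2 mice 0, 0 and 4.62. The log2 fold change was 7.99, and p-values are not given for these loci. Log2 fold changes were 8.33 to 8.44 at the Adarb2 pair, 7.98 at chr1:44882128-44884484 and 6.98 at chr14:73594500-73595630, with 7 of 8 Chr2-cl mice called at each. The mouse without the Adarb2 pair was C6734, and C6771 was without the other pair.

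Lower in the Chr2-cl mating was chr17:36876960-36879386, 30468 bp from the MHC class I gene H2-M10.5, with 23.7, 31.2 and 50.4 RPM against 39.4, 64.6 and 85.7 in F2 (log2 fold change -1.01, SE 0.10, edgeR adjusted p = 1.51e-11). The ranges overlapped. At chr3:10631255-10633067 the means were 19.6 ± 5.52 and 41.9 ± 7.77 RPM (log2 fold change -1.09), and at chr3:31326169-31327860 they were 28.3 ± 4.47 and 46.7 ± 7.08 (-0.72). At chr16:3251967-3254269, which had no probe match, Chr2-cl mice ranged from 3.61 to 113 RPM and F2 mice from 136 to 180, a log2 fold change of -2.14 (SE 0.30, adjusted p = 1.26e-07). Here all Chr2-cl mice lay below all F2 mice, and the B6 libraries held 66.6, 161 and 193 RPM.

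The pair of weak loci of the deleted stretch were also called in this comparison, in which 19 of the 39 F2 mice lacked the cluster and no Chr2-cl mouse was labelled as lacking it. The Chr2-cl mice held 648 to 736 RPM at the first and 75.5 to 92.4 at the second. F2 WT mice held 560 to 651 and 31.9 to 42.7 RPM, so that at the second locus Chr2-cl mice were above every F2 mouse of any genotype.

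A single weak locus lay on chromosome Y, at chrY:265980-270475 in an intron of Kdm5d, a histone demethylase gene. Leaving out T2379 and the 4 mice named above, the 33 males held 345, 386 and 420 RPM and the 36 females 35.7, 50.5 and 66.7. No library was at 0, and the sexes as labelled overlapped only through the mice left out. T2379, labelled female, held 179 RPM, between the sexes. C6923, C6924, C6926 and H04408, labelled male, held 49.8, 46.0, 35.7 and 46.8 RPM. Whether libraries or labels were exchanged was not tested.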

How the data were processed

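Genomic DNA of mice and ES cells was captured with ETn LTR probes and sequenced in pairs of 50-base reads. Per the study's methods, the authors mapped mates separately to mm9 with Bowtie, removed duplicates with SAMtools, retained unique alignments with a mate in an ETn repeat and joined them within 1000 bp with bedtools. The sources used here give no versions of these tools. Each deposited file holds raw read counts per region, for 1 library. Regions of 10 RPM or more in any of 87 libraries within 1000 bp were joined into 5018 loci and reads were summed per locus. The members, the gene groups and the comparisons were chosen with earlier results of these data known. Mice were grouped by the strain and genotype labels, with 1 main library each.

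Reads were tested with the quasi-likelihood test of edgeR 4.0.16 (R 4.3.3) over loci with 10 RPM or more in at least 3 of the compared libraries, with the library totals as library sizes and Benjamini-Hochberg adjustment over all loci tested. The script was tested on simulated data. Alternatives were TMM factors, DESeq2 1.42.0, other filters, thresholds and joining distances, and single tissues. Others left out libraries, matings or the F2 mice whose sex label went against the reads. The tests over weak loci chosen without T2379 were added after seeing the data. Probes were aligned with blastn 2.17.0 (word size 11, e-value 1e-05) to each locus and 1000 bp on each side of NCBIM37, the same assembly as mm9, with gene models of its GENCODE annotation. Unique 50-base words were counted over both strands. Of 1224 probes placed on a reference chromosome, 1223 were found at their named position.

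Loci named in the text were, by rule, the 5 highest and 5 lowest medians, those nearest the bounds, up to 6 called loci per direction and test, the 6 seldom called outside B6, up to 6 over coding exons, and the extremes of probe match. Runs of low B6 loci and the chromosome 5 group were chosen after their values were seen. Probe lists of RLTR4 elements were not used here.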

Additional observations from a re-analysis of the deposited data

Results flagged for a closer look

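Of 66 checks of 1 sample against the rest of its group (groups of 4 to 10, over 6 measures), 6 marked a sample far from the others, and chance marks about 1 in 20 groups. In the 4 ancestral B6 KO mice T2379 held 221 RPM at chr4:146917867-146925152, where the other 3 held 57.5 to 65.6. At chr4:146107781-146109027 it held 45.7 RPM and the others 14.7 to 17.3.

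The other 4 were at the chromosome Y locus, in groups with 1 mouse of the other sex. T00869 held 364 RPM among F1 KO mice at 42.5 to 47.8. C6927 held 392 RPM among KO/WT tails of mating 1 at 52.5 to 65.5, and C6733 held 379 RPM among its KO tails at 49.9 to 66.7. M05139 held 54.1 RPM among WT mice of mating 3 at 407 to 420.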

How the results depend on the processing

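Of 62 alternatives, 47 stayed within the limit set for their kind of value (1.5 times for a count, the spread between B6 libraries for the median level, the rounded value for the unique share), 15 moved past it and 0 reversed. The number of weak loci was 263 with an upper bound of 50 RPM and 706 with 200. Their median B6 level was 44.8 and 144 RPM with these bounds, 55.4 and 79.6 with calls at 5 and 20 RPM, and 53.9 without T2379. Called in all 60 other libraries were 197 and 574 with bounds of 50 and 200 RPM. Without T2379 there were 379 weak loci, 291 of them called in all 60, and with these loci, an alternative chosen after seeing the data, calls were 2, 37 and 51 in the 3 comparisons, of which 2, 34 and 46 were among the 409. The median unique share was 66.3% with 36-base words (strong loci 79.3), 81.7% for the locus alone (87.9) and 77.1% with 1000 bp on each side (87.4), below the strong loci each time. Ear libraries alone gave 16 calls for F2 against F1 (3.91%, against 3.86% of all loci). For Chr2-cl against F2 they gave 22 (5.38 against 7.62%), and Chr2-cl against F1 gave 13 (3.18 against 7.71%). The cause was not tested, though fewer libraries were compared in these. Without the WT mouse C5733 of mating 2, calls were 2, 47 and 62 in the 3 comparisons. Both chromosome 4 loci were called under all 10 alternatives for KO against littermates, and 1 more weak locus, higher in KO, without mating 2.

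Calls over all loci moved more. With TMM factors they were 323 of 2868 for F2 against F1 and 511 of 2889 for Chr2-cl against F2, and without a filter 1040 of 4938 and 677 of 4898. No paired analysis was possible because replicate numbers were given in accession order and pair no samples.

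Depth limits the lowest loci, where 10 RPM is 5.25 to 10.5 reads, so that small differences there could not be detected. Regions below 10 RPM in all libraries were not looked at. All B6 KO mice share 1 pedigree, and F1, F2 and the Chr2-cl mating differ in family and tissue as well as strain, which cannot be told apart.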
